A study of Mus musculus with 4 samples.

Results

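The TLE3 regions described here were those listed in adipocytes of the inguinal white depot (iWAT) and in neither the epididymal white (eWAT) nor the brown (BAT) list. They were selected on the authors' own listing: the region's name had to be in the iWAT list and absent from the other lists. This gave 15406 of the 69599 regions listed in any depot (22.1%), or 30.5% of the 50456 regions on the iWAT list. A low-elsewhere set of 5764 members (37.4%) had scaled reads below 7.5 in both eWAT and BAT, and the other 9642 reached 7.5 in at least 1 of them. Because the measured TLE3 values chose the members, their difference in TLE3 between depots is a description and was given no test.

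TLE3 was measured by chromatin immunoprecipitation and sequencing (ChIP-seq) with an anti-TLE3 antibody in primary adipocytes of male NMRI mice aged 4 to 5 weeks, and an input library without antibody was made from iWAT adipocytes. Stromal-vascular cells pooled from 10 to 15 mice, taken per depot (BAT joined interscapular, cervical and axillary fat), were cultured with insulin (30 nM) and rosiglitazone (1 µM), so cells of every depot received this PPARγ agonist. Cultures were harvested on day 8, and those in which more than 50% of cells had differentiated were used, so undifferentiated cells may remain. Fixation used disuccinimidyl glutarate (2 mM, 15 min) before formaldehyde (1%, 30 min). Each depot had 1 library, so the depot's effect and the library's cannot be told apart, and all intervals below cover counting error only. The files hold no expression, so the adipocyte label could not be checked against markers.

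TLE3 is a corepressor of the Groucho/TLE family. These proteins do not read a DNA sequence themselves. They are brought to chromatin by transcription factors such as the RUNX, HES and TCF/LEF families and recruit histone deacetylases. In fat cells TLE3 is known as a partner of PPARγ in adipocyte differentiation and as an antagonist of PRDM16 in the thermogenic programme.

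Upstream sequences at 5 genes show the range of sequence at the few members that overlap a promoter. Aspn and Defb48 are low-elsewhere regions, and Il4ra, F2r and Rnf149 are regions with high iWAT values and clear signal in the other depots. The 250 bases upstream of each start are printed from RefSeq (GRCm38.p6), 5′ to 3′ on the gene's strand. Region coordinates are in mm9, so the RefSeq start need not be the start used in the deposited annotation. Capitals mark matches, on either strand, to any of 7 motifs: the E-box CACGTG, RUNX TGTGGT, TCF CTTTGA, EBF CCCNNGGG, AP-1 TGANTCA, the nuclear receptor half-site AGGTCA and TEAD GGAATG.
Aspn: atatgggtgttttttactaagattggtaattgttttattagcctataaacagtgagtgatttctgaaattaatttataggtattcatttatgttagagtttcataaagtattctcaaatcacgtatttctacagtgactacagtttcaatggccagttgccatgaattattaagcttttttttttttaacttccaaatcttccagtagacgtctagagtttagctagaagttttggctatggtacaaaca
Defb48: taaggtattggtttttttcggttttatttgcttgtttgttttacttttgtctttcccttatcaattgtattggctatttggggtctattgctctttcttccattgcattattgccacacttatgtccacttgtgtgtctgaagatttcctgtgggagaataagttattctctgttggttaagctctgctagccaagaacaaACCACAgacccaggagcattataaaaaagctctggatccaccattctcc
Il4ra: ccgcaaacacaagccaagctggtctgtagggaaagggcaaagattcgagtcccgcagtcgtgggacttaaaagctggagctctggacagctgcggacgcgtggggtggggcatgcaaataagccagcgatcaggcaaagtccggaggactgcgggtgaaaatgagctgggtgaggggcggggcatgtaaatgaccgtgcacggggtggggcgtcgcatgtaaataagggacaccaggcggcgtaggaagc
F2r: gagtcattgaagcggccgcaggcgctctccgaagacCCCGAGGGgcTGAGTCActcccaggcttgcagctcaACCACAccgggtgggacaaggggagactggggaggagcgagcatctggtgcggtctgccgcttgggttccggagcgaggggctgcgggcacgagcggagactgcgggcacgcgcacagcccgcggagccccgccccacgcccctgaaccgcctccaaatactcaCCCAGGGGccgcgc
Rnf149: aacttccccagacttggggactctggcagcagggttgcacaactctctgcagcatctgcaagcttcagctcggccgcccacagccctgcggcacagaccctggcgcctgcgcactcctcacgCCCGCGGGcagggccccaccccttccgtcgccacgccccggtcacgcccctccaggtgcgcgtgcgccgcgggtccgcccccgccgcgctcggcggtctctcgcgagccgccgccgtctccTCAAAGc

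These upstream sequences were unlike each other in base composition. G and C made up 30.0% of the Aspn bases, 38.4% at Defb48, 59.6% at Il4ra, 70.8% at F2r and 73.2% at Rnf149. Aspn and Il4ra held none of the 7 motifs. Defb48 held 1 RUNX match. F2r held 2 EBF matches, 1 AP-1 match and 1 RUNX match, and Rnf149 held 1 EBF and 1 TCF match.

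Of 90 members overlapping at least part of the 250 bases upstream of a start, 53 were matched to a RefSeq promoter, at 52 genes. Matches were counted over all 250 bases, so also outside the TLE3 region. TCF letters were in 23.1% of these 52 promoters (95% Wilson interval 13.7 to 36.1) and in 14.3% of the 22862 genes with 1 start in the table. AP-1 letters were in 15.4% (8.01 to 27.5) against 6.96% of all, EBF letters in 17.3% against 11.5%, and the E-box in 9.62% against 5.92%. RUNX letters were in 9.62% against 14.3%, the half-site in 5.77% against 13.8%, and TEAD letters in 5.77% against 12.6%. Only the AP-1 interval, of the 7 motifs, lay wholly above the share in all promoters. It rests on 8 of the 52 promoters, and only 6 of the 53 matched members were low elsewhere. Promoters at TLE3 regions of other classes were not counted, so the AP-1 share cannot be called particular to the members. The median GC content was 53.4% in the members' promoters and 52.0% in all.

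The values at these promoters are given as a description, since the 7.5 limit on eWAT and BAT parted the sets. Asporin (Aspn), a small proteoglycan of the matrix, had a region at chr13:49639696-49639926, 1 base from the start, with 0.65 scaled reads in input, 6.18 in eWAT, 32.6 in iWAT and 5.53 in BAT. Il4ra, the interleukin 4 receptor α chain, had a region at chr7:132695409-132695639 with 7.81 in input, 73.3 in eWAT, 103 in iWAT and 24.9 in BAT. F2r, the thrombin receptor PAR1, had a region at chr13:96388497-96388727 with 7.81, 76.8, 100.4 and 33.2 in the same order. At Il4ra and F2r the eWAT values were high, and the regions were off the eWAT list because they did not reach 10 times the input.

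That input limit bears on how the members should be read. Regions on a list reached 15 scaled reads in the library of that list, and 10 times their input, limits read from the values themselves. In eWAT, 13018 members (84.5%) were below 15. Another 2380 (15.4%) reached 15 but fell under the input limit, with a median of 3.25 scaled reads in input and 23.0 in eWAT, and 8 met both limits and were still off the list. In BAT, 14618 members (94.9%) were below 15 and 788 (5.11%) fell under the input limit. Both other depots were below 15 at 12873 members (83.6%). The input came from iWAT adipocytes alone, so a limit of this kind was set by 1 depot's chromatin for all of them.

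Over all 15406 members the median was 0.65 scaled reads in input, 8.83 in eWAT, 26.3 in iWAT and 2.77 in BAT. No member's eWAT or BAT value exceeded its iWAT value. The listing largely fixed this, since a higher value over the same input would have passed the limits of that depot's list. Members ran from 15.24 to 196.02 in iWAT, from 0 to 110.38 in eWAT and from 0 to 77.43 in BAT. No read lay in 578 members in eWAT, 4697 in BAT and 285 (1.85%) in both. In the low-elsewhere set the medians were 3.53 in eWAT, 22.6 in iWAT and 2.77 in BAT.

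**Figure D1:**
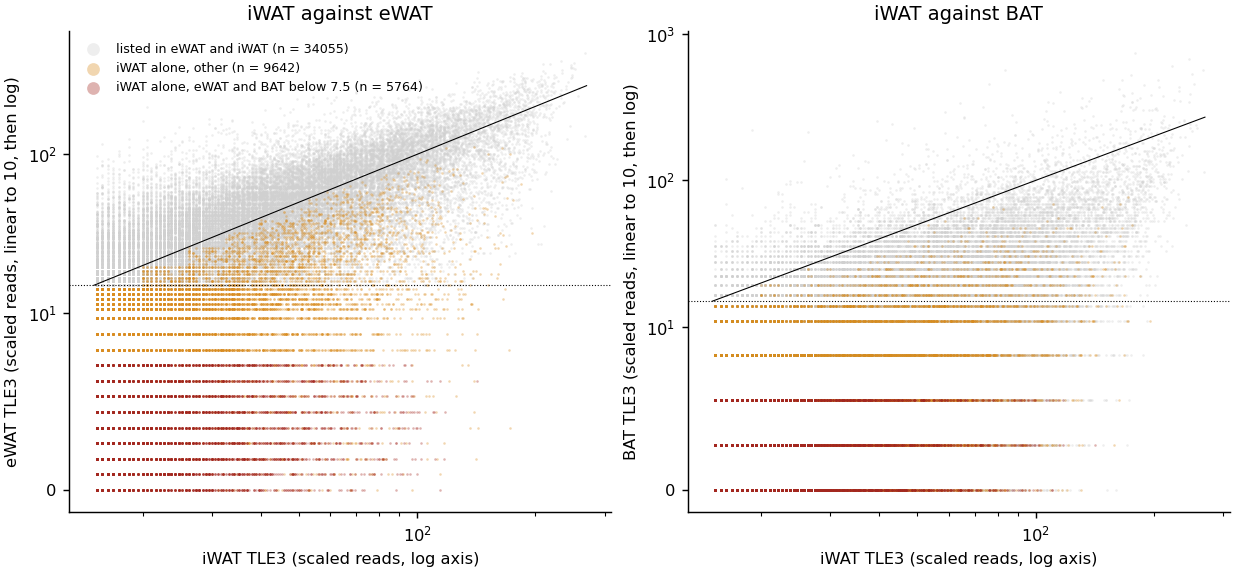
TLE3 in iWAT (x axis, scaled reads, log) against eWAT (left) and BAT (right), 1 point a region. Grey points are the 34055 regions listed in both white depots, orange the 9642 other members and red the 5764 low-elsewhere members, the solid line marks equal values and the dotted line 15 scaled reads. Horizontal stripes are single reads, and they are far wider in BAT. Members above the dotted line were off the other list mainly through the input limit.

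The depth behind a zero differed by depot. The steps in the values put 1 read at 2.77 scaled reads in BAT, 0.883 in eWAT, 0.651 in input and 0.526 in iWAT. The limit of 7.5 therefore allowed up to 8 reads in eWAT and 2 in BAT. A count of 0 in BAT allows up to 8.30 scaled reads (3 reads), which is above the limit, so a low BAT value does not show that TLE3 is absent there. The eWAT side was the narrower gate: 6926 members (45.0%) were below 7.5 in eWAT and 11179 (72.6%) in BAT.

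The listing limit cut through a continuum. At the lowest listed iWAT value of 15.24 stood 600 members, such as regions near Cpa6, Mir6341 and Eya1, and 462 regions off the iWAT list stood at 14.71, such as others near Xkr4, Ncoa2 and Eya1. The 7.5 limit likewise parted 616 low-elsewhere regions at 7.06 in eWAT from 558 others at 7.95.

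iWAT was at least 4-fold over eWAT at 43.7% of members (4614 of the low-elsewhere set and 2126 of the others), against 10.7% of all listed regions. It was at least 4-fold over BAT at 28.7% of members, against 20.1% of all, with values under 3 reads raised to 3 reads. The rule used both contrasts, so nothing is read from these shares. Scaling BAT to iWAT by the strongest 25% of regions, where iWAT values were 2.71 times those of BAT, took the BAT share to 1.26%, and scaling by regions listed in all 3 depots took it to 9.36%. Every BAT value counted as at least 8.30 scaled reads, so a member passed only with an iWAT value at least 4 times that. The members' median in iWAT was 26.3, so most could not pass whatever their BAT value. Both scalings raised this floor as well, so still fewer members could pass.

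The strongest low-elsewhere regions stood far above their values in the other depots. The highest lay at chr13:105936956-105937186, at the transcription end of Rnf180, a ubiquitin ligase gene, with 142 scaled reads in iWAT, 6.18 in eWAT, 2.77 in BAT and 1.30 in input. These are 270 reads in iWAT, 7 in eWAT and 1 in BAT, a 23.0-fold ratio of iWAT to eWAT (95% counting interval 11.0 to 57.6). Its nearest start, 64.9 kb away, is that of 4933425L06Rik. Regions named here and below were picked for high iWAT values, and low-elsewhere ones also for low eWAT values, so their ratios lean high. The counting intervals do not allow for this choice and are not a test against a ratio of 1.

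A region in intron 72 of 106 of Hmcn1, the extracellular matrix protein hemicentin 1, lay at chr1:152478702-152478932, 166 kb from the start of Prg4, which encodes lubricin. It held no read in eWAT, 114.56 scaled reads in iWAT, 2.77 in BAT and 1.95 in input. With 0 eWAT reads set to the 3-read floor, iWAT was at least 43.2-fold higher.

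Kitl encodes the KIT ligand, a growth factor for stem and mast cells. Its intron 2 held a region at chr10:99525432-99525662 with 0.65 in input, 4.42 in eWAT, 110.4 in iWAT and 0 in BAT. iWAT was 25.0-fold over eWAT there (10.5 to 77.8) and at least 13.3-fold over BAT. In intron 6 of 14 of the autophagy gene Uvrag, at chr7:106178129-106178359, the values were 1.95, 1.77, 111 and 5.53 in the same order. An intergenic region 131 kb from Epha3, an ephrin receptor gene, had 0, 6.18, 106 and 5.53. All 12 of the strongest low-elsewhere regions held over 100 scaled reads in iWAT.

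The strongest members outside that set were mixed. An intergenic region at chr15:41751917-41752147, 50.8 kb from Abra, which encodes an actin-binding protein, had 1.95 in input, 3.53 in eWAT, 172 in iWAT and 11.1 in BAT, and missed the low-elsewhere set through BAT alone. One near Nmd3, a ribosome export factor, at chr3:69521890-69522120 had 1.30, 7.95, 171 and 11.1. A region 120 kb from Tle4, another Groucho family gene, at chr19:14792265-14792495 had 1.30, 14.1, 168 and 8.30. These 3 differed 48.8-fold (18.9 to 180), 21.5-fold (11.2 to 47.4) and 11.9-fold (7.19 to 21.0) between iWAT and eWAT.

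Others in the same group owed their place to the input. In intron 1 of Tmod3, a tropomodulin that caps actin filaments, the region at chr9:75406244-75406474 had 10.4 in input, 99.8 in eWAT, 172 in iWAT and 77.4 in BAT, and iWAT was 1.72-fold over eWAT (1.39 to 2.15). The member with the highest iWAT value of all, 54.4 kb from the prostaglandin F receptor gene Ptgfr at chr3:151554821-151555051, had 11.1 in input, 31.8 in eWAT, 196 in iWAT and 11.1 in BAT. Its iWAT value was still 6.17-fold over eWAT (4.37 to 8.94), and its BAT value was below 15. The limit of 7.5 fixed the low eWAT and BAT values of the 12 low-elsewhere regions, and the 12 others ran from 3.53 to 99.8 in eWAT.

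**Figure D2:**
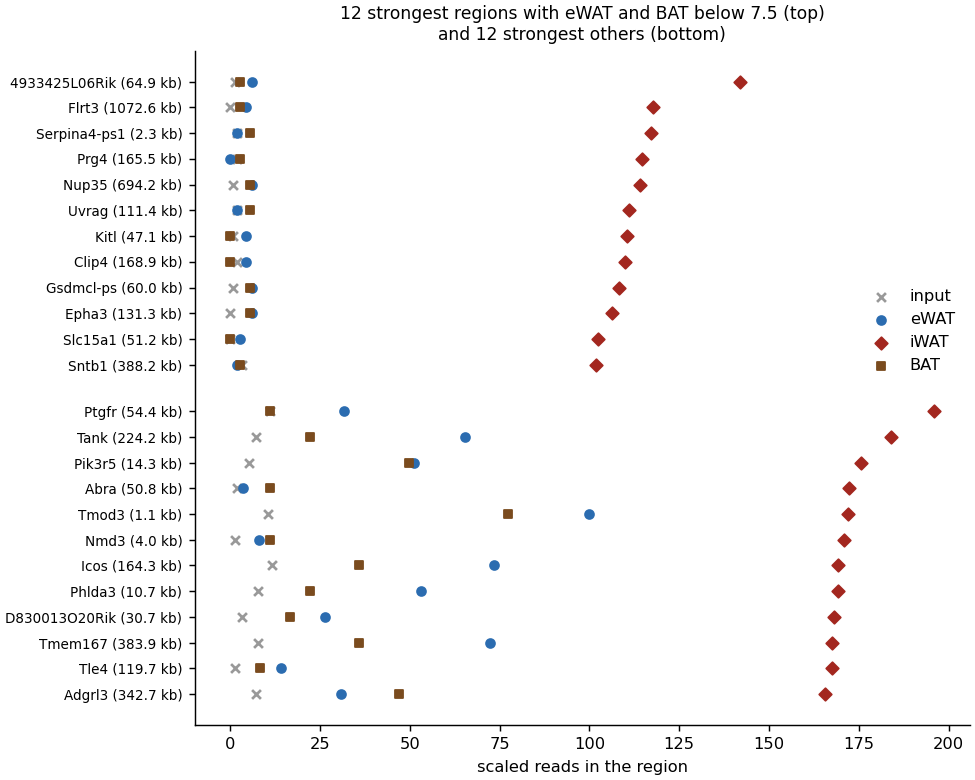
Scaled reads (x axis) in the 4 libraries at the 12 low-elsewhere members (top) and 12 other members (bottom) with the highest iWAT values, named by nearest gene and distance to its start. In the top group eWAT, BAT and input cluster at the left and iWAT stands above 100, while in the bottom group eWAT reaches 99.8 at Tmod3.

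Members lay far from start sites. Their median distance to the nearest start was 53.6 kb (95% interval 51.9 to 55.1), against 31.0 kb (30.0 to 31.7) for the 16130 regions of eWAT alone, 36.8 kb for the 23021 of both white depots only and 38.0 kb for the 11034 of all 3 depots. In the low-elsewhere set it was 69.0 kb (65.8 to 72.2), and 45.8 kb in the other members. The 995 regions of iWAT and BAT only stood at 52.1 kb (46.1 to 58.6), an interval that overlaps that of the members.

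Fewer members lay at promoters. Within 1 kb of a start were 269 members (1.75%), against 3.47% of eWAT-alone regions, a difference of -1.72 percentage points (-2.07 to -1.37). Low-elsewhere members were at 0.937% and other members at 2.23%. Intergenic positions held 54.9% of members, 46.0% of eWAT-alone regions and 59.9% of the low-elsewhere set, and introns held 41.8%, 48.2% and 37.4%. Beyond 100 kb lay 33.0% of members and 20.8% of eWAT-alone regions. The nearest gene was not protein-coding for 20.2% and 16.5%. The 995 regions of iWAT and BAT only lay much as the members did: 54.8% were intergenic (51.7 to 57.8), 41.1% in introns (38.1 to 44.2), 33.7% beyond 100 kb (30.8 to 36.7) and 22.1% nearest a gene that is not protein-coding (19.6 to 24.8). Their share within 1 kb of a start was 2.51% (1.71 to 3.68), an interval that overlaps that of the members (1.55 to 1.97). These positions are thus not particular to the members among regions listed in iWAT and not in eWAT.

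The median distance of the members did not follow signal strength. In bins of iWAT value from 15 to 20 up to 80 and over, the members' median stayed between 50.7 and 55.9 kb. The share of members within 1 kb of a start was higher in the strong bins, 1.37% (1.07 to 1.75) at 15 to 20 and 3.14% (2.07 to 4.76) at 80 and over. For eWAT-alone regions binned by eWAT value the median was 35.3 kb (33.4 to 37.3) at 15 to 20, 24.3 kb (22.1 to 27.2) at 50 to 80 and 29.3 kb (24.9 to 32.3) at 80 and over. Regions of both white depots only, binned by iWAT value, stood between 34.1 and 41.0 kb. The low-elsewhere share fell with strength, from 48.9% of members at 15 to 20 to 11.1% at 80 and over. Among members below 15 in both other depots, chosen after the data were seen, the median was 57.8 kb, and eWAT-alone regions below 15 in iWAT and BAT stood at 33.5 kb.

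**Figure D3:**
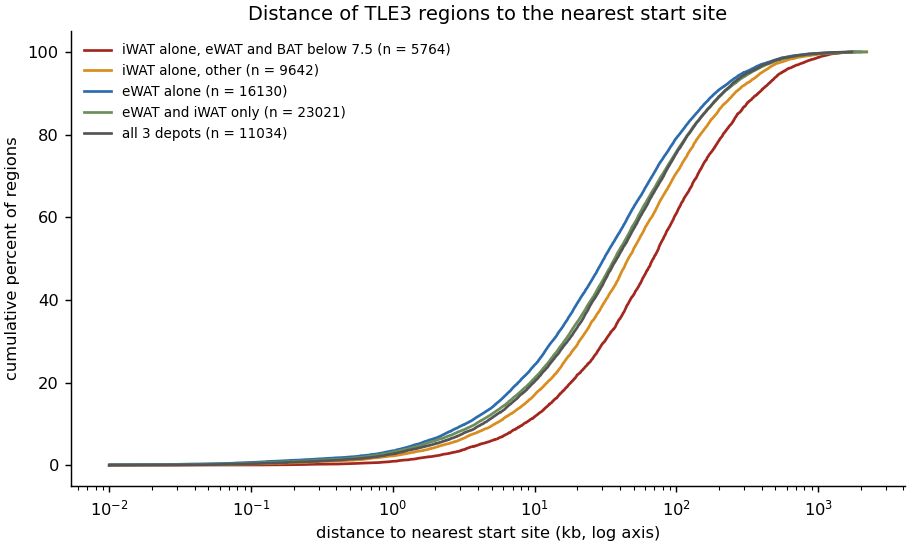
Cumulative percent of regions (y axis) within a given distance of the nearest start site (x axis, kb, log) for the members and 3 other classes of region. The low-elsewhere curve lies farthest right, with a median of 69.0 kb, then the other members at 45.8 kb, and the eWAT-alone curve lies farthest left at 31.0 kb.

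The few strong members at start sites are named here because they carry the highest iWAT values within 1 kb. Tmcc3, a transmembrane coiled-coil protein gene, had a region at chr10:93976928-93977158 with 3.90 in input, 16.8 in eWAT, 139 in iWAT and 24.9 in BAT, an 8.27-fold ratio to eWAT (5.19 to 14.0). Man2a1, a Golgi mannosidase of N-glycan processing, had one in intron 1 at chr17:64951839-64952069 with 3.25, 11.5, 104 and 2.77, a 9.06-fold ratio (5.18 to 17.3). Ddhd2, a lipase gene, had the highest value at chr8:26864875-26865105 with 11.7, 109.5, 164 and 41.5, and its eWAT ratio was 1.5-fold (1.22 to 1.87). Of these 3 promoters, Man2a1 was below 15 in eWAT, while Tmcc3 and Ddhd2 reached 15 there and were off the eWAT list by the input limit.

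Within 50 kb of a start lay 7428 members (48.2%), at 5051 of the 13381 genes with any listed region in that window (37.7%). A single member was at 3496 genes, 2 or 3 at 1362, and 4 or more at 193. At 1085 genes the only listed regions were members. Of the 5051 genes, 2331 (46.1%) also had an eWAT-alone region, near the 50.6% of all 13381 genes. In the same window 6773 genes had an eWAT-alone region, and 240 had 4 or more. Members made up 18.8% of the 39602 listed regions within 50 kb (18.4 to 19.1), and eWAT-alone regions 25.4%.

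Mitf, the transcription factor of the melanocyte, mast cell and osteoclast lineages, had the most members, 10 of its 20 regions, of which 5 were low elsewhere. The 10 members summed to 222 scaled reads in iWAT, 82.1 in eWAT and 33.2 in BAT. Its strongest, in intron 1 at chr6:97768246-97768476, had 3.25 in input, 24.7 in eWAT, 42.6 in iWAT and 0 in BAT, so the members of Mitf were many and individually modest. Nedd9, a scaffold protein of focal adhesions, had 9 members of 34 regions, with an eWAT maximum of 78.6.

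Several genes had members and few regions of the other classes. Osr2, a zinc-finger factor of limb and joint development, had 6 members among 8 regions and no eWAT-alone region. Their sums were 39.7 in eWAT, 374 in iWAT and 55.3 in BAT. The strongest, at chr15:35240321-35240551 in an intron of BC048602, had 3.90 in input, 5.30 in eWAT, 107 in iWAT and 8.30 in BAT, and iWAT was 20.2-fold over eWAT (9.14 to 55.8). Bbox1, the last enzyme of carnitine synthesis, had 8 members of 12 regions, and the collagen gene Col24a1 had 8 of 11, both without an eWAT-alone region.

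Il33, an alarmin cytokine of stromal cells, had 7 members of 12 regions and none of eWAT alone. The strongest, 14.9 kb from its start at chr19:29984582-29984812, had 1.30 in input, 50.5 in iWAT and no read in eWAT or BAT, which makes iWAT at least 19.0-fold over eWAT and at least 6.08-fold over BAT. It overlaps a LINE-1 element (L1_Rod). The summed members of Il33 were 58.3 in eWAT, 243 in iWAT and 16.6 in BAT.

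Gene lists were compared by the share of their regions within 50 kb that were members, beside the 18.8% over all genes. Intervals treat regions as independent, though several can lie at 1 gene, such as 8 of the 59 matrix members at Fbn1. They do not cover differences between genes, and no allowance was made for the number of lists compared. The lists were chosen with earlier results of these data known, so the shares are a description. Depot and developmental genes, a list of transcription factors known to mark body position and fat depots, stood at 26.6% (29 of 109, 19.2 to 35.6), with 17.4% of eWAT alone, and 15 of its genes had more members than eWAT-alone regions and 7 fewer. Tbx15, a T-box factor of skeletal and fat development, had 4 members among 10 regions, beside 4 regions of iWAT and BAT only, 1 of BAT alone and none of eWAT alone. The 4 members summed to 9.71 in eWAT, 197 in iWAT and 36.0 in BAT. The strongest, in intron 1 of Tbx15 at chr3:99068445-99068675, had 0.65 in input, 0.88 in eWAT, 73.1 in iWAT and 2.77 in BAT. That is 1 read in eWAT and an 82.7-fold ratio with a wide interval (14.6 to 3290).

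Twist1, a mesenchymal bHLH repressor, had 3 members, all low elsewhere, summing to 10.6 in eWAT, 80.9 in iWAT and 2.77 in BAT. Wt1, a factor of the mesothelium and visceral fat, had 2 members and 3 eWAT-alone regions, so it carried regions of both kinds. Its strongest member, in intron 7 of 9 at chr2:105008475-105008705, had 3.25 in input, 23.8 in eWAT, 101 in iWAT and 5.53 in BAT.

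Secreted signals and their antagonists stood near the share of all genes. The TGF-β and BMP list was at 18.2% (27 of 148) and the Wnt and Notch list at 19.9% (35 of 176). Gdf10, a BMP-like ligand, had 4 members and Chrdl1, a BMP antagonist, had 4, of which 1 was low elsewhere.

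Among Wnt genes, Tcf7l2, the nuclear effector that binds Groucho proteins, had 5 members of 15 regions and 4 of eWAT alone. Its strongest, in intron 4 at chr19:55843426-55843656, had 7.16 in input, 11.5 in eWAT, 83.0 in iWAT and 11.1 in BAT. Ror2, a Wnt5a receptor, had 3 members and Dkk3, a dickkopf family protein, had 2. The strongest Ror2 region had 7.95 in eWAT, 94.1 in iWAT and 2.77 in BAT, and the strongest Dkk3 region 2.65, 73.6 and 5.53. Both single regions were low in eWAT and BAT, though Ror2 missed the 7.5 limit by 1 read's worth.

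The matrix list was at 25.1% (59 of 235, 19.99 to 31.0), with 28 of the 59 low elsewhere, and 15.3% of its regions were of eWAT alone. Fbn1, the microfibril protein fibrillin 1, had 8 members of 12 regions, with single values of 15.8 to 44.1 in iWAT and at most 23.0 in eWAT. Thbs2, an antiangiogenic matrix protein, had 6 of 11. Its strongest, at chr17:14840846-14841076, had 11.7 in input, 109.5 in eWAT, 118 in iWAT and 38.7 in BAT, so that member was nearly as high in eWAT as in iWAT. Axon guidance genes were at 30.0% (30 of 100, 21.9 to 39.6), with 22.0% of eWAT alone: Neo1, a netrin and repulsive-guidance receptor, had 3 regions and all were members, and the semaphorin gene Sema3a had 3 low-elsewhere members and 2 eWAT-alone regions.

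Adipocyte and lipid genes were at 8.82% (15 of 170, 5.42 to 14.0), under the 18.8% of all genes. Regions of eWAT alone were also low there, at 17.6% (12.7 to 24.1) against 25.4% over all genes, so the low share was not particular to the members. Adiponectin (Adipoq), the fat-cell hormone, had 2 members of 7 regions. The stronger, intergenic at chr16:23162262-23162492 and 15.8 kb from the start, had 2.60 in input, 10.6 in eWAT, 82.5 in iWAT and 2.77 in BAT, and iWAT was 7.79-fold over eWAT (4.33 to 15.4). This region overlaps a LINE-1 element (L1_Mur3). Pparg, the master regulator of the fat cell, had 2 members among 23 regions, of which 10 were of both white depots only and 7 of all 3.

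Transcription factors of the EBF, NFI, KLF and C/EBP families were at 10.4% (11 of 106), with 28.3% of eWAT alone. Ebf3 had 4 of the 11. Its strongest, in intron 6 of 15 at chr7:144495662-144495892, had 3.25 in input, 10.6 in eWAT, 117 in iWAT and 27.7 in BAT. The Groucho and corepressor list was at 8.00% (6 of 75, 3.72 to 16.4), with 36.0% of eWAT alone. Tle3 itself had 1 member among 14 regions, at chr9:61198942-61199172 with 7.16, 43.3, 77.3 and 27.7, and Hdac9, a class IIa deacetylase, had 2, both low elsewhere.

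Metabolic lists were not above the share of all genes. Thermogenic and beige genes were at 14.9% (15 of 101), insulin and IGF genes at 14.0% (20 of 143) and nuclear genes of oxidative phosphorylation at 15.0% (12 of 80), and each interval held 18.8%. Pik3r1, the p85α subunit of PI3-kinase, had 4 members and Irs1, its docking partner, had 2. The strongest Irs1 region had 5.86, 51.2, 71.0 and 11.1 in input, eWAT, iWAT and BAT. Ndufs4, a complex I subunit, had 1 low-elsewhere member with 6.18 in eWAT, 54.1 in iWAT and 0 in BAT.

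Marker genes of other cells that a stromal culture can hold were read in the same way. Members made up 21.5% of regions at preadipocyte and fibroblast genes (28 of 130), 24.2% at mesothelial genes (8 of 33), 35.7% at endothelial genes (10 of 28, 20.7 to 54.2), 36.0% at skeletal muscle genes (9 of 25, 20.2 to 55.5), 25.0% at neuronal genes (6 of 24) and 12.1% at macrophage genes (4 of 33). Regions of eWAT alone, 25.4% over all genes, made up 54.5% at macrophage genes (38.0 to 70.2), 36.4% at mesothelial genes (22.2 to 53.4), 36.0% at muscle genes, the same as the members' share, and 14.3% at endothelial genes (5.70 to 31.5). These lists rest on few genes. Erg, an endothelial ETS factor, gave 5 of the 10 endothelial members and Mef2c, a muscle factor, 5 of the 9 muscle members. In the preadipocyte and fibroblast list 7 genes had more members than eWAT-alone regions and 6 had fewer. Thy1, a stromal surface antigen, had 3 members, all low elsewhere, summing to 15.0 in eWAT, 100.4 in iWAT and 5.54 in BAT. Others of the list differed: Dcn had 6 members with 1 low elsewhere, and the 2 of Anxa3 summed to 38.9 in eWAT and 48.4 in iWAT. The cells making up each culture were not measured in these files, and their part in the differences was not tested.

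**Figure D4:**
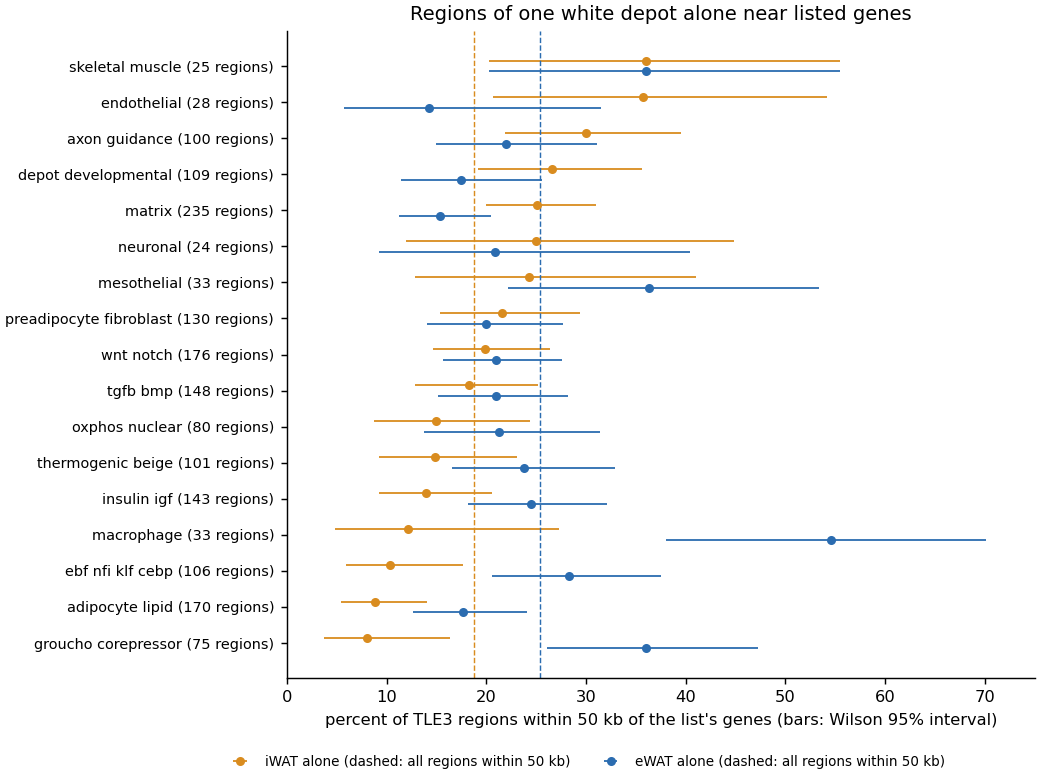
Percent of listed regions within 50 kb of each list's genes (x axis) that were members (orange) or of eWAT alone (blue), with Wilson 95% intervals, and the shares over all genes as dashed lines. The whole interval of members lies above the orange line of 18.8% for the axon guidance, depot and developmental, matrix, endothelial and muscle lists. It lies below that line for the adipocyte, EBF and corepressor lists. Intervals treat regions as independent and do not cover differences between genes, and the lists were chosen with earlier results of these data known.

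The share of regions with their own kind nearby depends on how many regions a class has, and no expected share was computed. Another member lay within 10 kb of 26.3% (25.6 to 27.0) of the 15406 members, against 24.7% for the 16130 eWAT-alone regions with their own kind. It was 36.0% for the 23021 regions of both white depots only and 27.2% for the 11034 of all 3 depots. In the low-elsewhere set 13.6% had another of the set that close. Any listed region lay within 10 kb of 60.3% of members, 59.5% of eWAT-alone regions and 71.1% of regions of all 3 depots. Of the listed neighbours within 10 kb of a member, 30.1% were members and 15.8% were of eWAT alone, and around eWAT-alone regions the shares were 15.5% and 28.7%. Over all listed regions, members made up 22.1% and eWAT-alone regions 23.2%.

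Chains of members no more than 10 kb apart numbered 1528 of 2, 252 of 3, 45 of 4, 7 of 5 and 3 of 6, beside 11361 single members. The chain of 6 with the highest sum, at chr7:90360036-90387075, ran over 27.0 kb starting 63.2 kb from the noncoding gene A530021J07Rik. Its members held 30.5 to 102 in iWAT, 0 to 9.71 in eWAT and 0 to 5.53 in BAT, and no eWAT-alone region and none shared with eWAT lay inside. A chain of 5 near Nav3, a neuron navigator gene, at chr10:109601008-109629204 held 4 low-elsewhere members with at most 10.6 in eWAT. The chain of 5 near Gmds, a fucose synthesis gene, ran up to 78.6 in eWAT, so chains were not all low there.

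The 34055 regions listed in both white depots were not members, and they shared the libraries that chose the members. Their median log2 ratio of iWAT to eWAT was -0.09, and scaling by the regions of all 3 depots, whose median log2 ratio was -0.14, would raise each value below by that amount. The ratio stood at -0.16 with no member within 50 kb, -0.09 with 1, -0.02 with 2, 0.04 with 3 and 0.11 with 4 or more. By eWAT-alone regions in the same window it went from -0.01 with none to -0.21 with 4 or more. Regions with members and no eWAT-alone region nearby were at 0.05, and those with the reverse at -0.21. The quartiles of each group overlapped widely, from -0.31 to 0.61 with 4 or more members and from -0.55 to 0.26 with none.

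**Figure D5:**
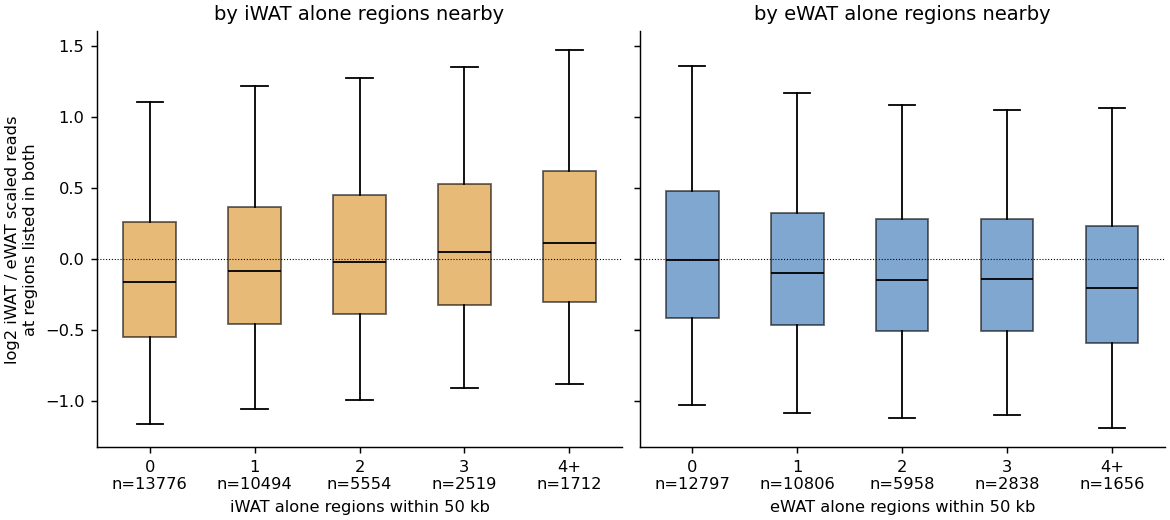
Log2 ratio of iWAT to eWAT scaled reads (y axis) at the 34055 regions of both white depots, by the number of members (left) or eWAT-alone regions (right) within 50 kb. Boxes are quartiles with the median and whiskers the 5th and 95th percentiles. Medians go from -0.16 to 0.11 on the left and from -0.01 to -0.21 on the right, with boxes that overlap.

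Repeat elements were named by the deposited annotation at 19.1% of members, 17.4% of eWAT-alone regions and 17.0% of regions of both white depots only. The families below were picked after their values were seen. DNA transposons held 3.04% of members and 1.53% of eWAT-alone regions, a difference of 1.52 points (1.19 to 1.85), and 2.60% of regions of all 3 depots. The related elements URR1A and URR1B held 167 members (1.08%), against 0.291% of eWAT-alone regions and 0.804% of regions of both white depots only. MER121 held 40 members (0.260%, 0.191 to 0.353), 6 eWAT-alone regions (0.0372%) and 4 of the 995 regions of iWAT and BAT only (0.402%, 0.156 to 1.03), so it was not particular to the members. In the same 995 regions DNA transposons held 1.61% (0.992 to 2.60) and URR1A and URR1B 0.201% (0.0551 to 0.730). LINE-1 elements held 5.36% of members, 6.30% of the low-elsewhere set and 4.82% of eWAT-alone regions.

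Single repeat members showed both kinds of value. A MER121 region at chr4:12523259-12523489, 311 kb from Triqk, had 5.86 in input, 11.5 in eWAT, 137 in iWAT and 16.6 in BAT. Another, of URR1A in an intron of Ptchd4, at chr17:42524812-42525042, had 1.30, 4.42, 92.0 and 2.77 and was low elsewhere. A MER121 region in an intron of Enpp6, a choline phosphodiesterase gene, had 4.56, 36.2, 109 and 19.4. Regions given above near Tle4 (LTR37B), Tbx15 (MIRc), Irs1 (MIRm), Il33 (L1_Rod) and Adipoq (L1_Mur3) also overlap a named repeat. Reads that map to many copies can be placed wrongly in such regions, and the sources do not say how they were placed.

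Region names in the lists end in 1, 2 or 3, and the sources used here do not say what the ending means. Members ending in 1 numbered 12017 (78.0%), with a median of 6.18 in eWAT and 47.2% low elsewhere. Those ending in 2 numbered 3354 (21.8%), with a median of 11.5 in eWAT and 2.68% low elsewhere, and 35 ended in 3. Of the 5764 low-elsewhere members, 5674 ended in 1.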

How the data were processed

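The deposited peak tables give, per the file headers, 1 row a region with its mm9 position, nearest gene, annotation, and the scaled TLE3 signal the authors counted in each of 4 libraries. The peak score the authors deposited beside them was not used. STAR, HOMER and mm9 are named in the submitters' processing notes without versions or roles. Values are whole multiples of 1 read's worth in each library (100% within 0.1 read). If they were scaled to 10 M reads, an assumption, depths were 15.4 M reads in input, 11.3 M in eWAT, 19.0 M in iWAT and 3.62 M in BAT.

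Regions were joined by name across the lists. With 1 library a depot no test was possible, and shares carry Wilson, differences Newcombe, medians order-statistic and ratios exact 95% intervals, all for counting error. A gene's regions were those within 50 kb of its start. Scripts were tested on simulated data and run with Python 3.11.15, pandas 2.3.3, numpy 2.4.6, scipy 1.17.1 and statsmodels 0.14.6. Promoters and accession symbols came from RefSeq (GRCm38.p6), used for names and upstream sequence only.

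Named regions were the 12 low-elsewhere and 12 other members with the highest iWAT values and the 8 highest within 1 kb of a start. Named genes were the 15 with the most members and up to 4 of each list, and the text gives a part of these. The members and gene lists were chosen with earlier results of these data known.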

Additional observations from a re-analysis of the deposited data

How the results depend on the processing

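No paired analysis was possible because each depot had 1 library, and no replicate was there to leave out. GC content of the regions was not run, because no genome of the files' build was used. Of 68 alternative values, 35 stayed within 1.5 times the count or within the interval of the main share or median, 32 moved and 1 reversed, and the cause was not tested except where the alternative itself is wider or narrower.

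Only members at 30 or more in iWAT numbered 6244 (1573 low elsewhere, 2412 genes), with 2.16% within 1 kb of a start, 40.9% in introns, 52.8% and 70.9% at 4-fold over eWAT and BAT, and 15.3% with another member within 10 kb. Chosen after the data were seen, keeping members below 15 in both depots gave 1.27% within 1 kb of a start, 55.9% intergenic, a median of 57.8 kb, 50.4% and 24.1% at 4-fold over eWAT and BAT, and 22.9% within 10 kb of another. Leaving the BAT list out of the rule, also added later, gave 27.7% for this spacing, and asking for no other list within 1 kb gave 25.5%. Spacing within 5 kb gave 15.6% and within 25 kb 45.7%.

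A limit of 5 left 3235 low-elsewhere regions, and scaling by the strongest 25% left 3007. Over eWAT, 2-fold gave 76.6%, 8-fold 16.9%, and scaling by the strongest or common regions 47.5% and 47.8%. Over BAT the same settings gave 85.1%, 4.45%, 1.26% and 9.36%. A window of 10 kb gave 2066 genes. Promoters taken as 2.5 kb gave 4.36%, and by the deposited annotation 1.09%. Shared regions near members had a median log2 ratio of -0.0327 within 50 kb, 0.0441 within 10 kb, which reversed the sign, and -0.0570 within 100 kb. In all 3 windows it was above that of shared regions with no member nearby, by 0.131, 0.162 and 0.127.

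Under all 5 other definitions of a member applied alike to eWAT-alone regions, the members' median distance (53.5 to 57.8 kb) stayed above that of eWAT-alone regions (27.2 to 33.5 kb). Depth limits the BAT side most: a count of 0 there allows 8.30 scaled reads. The fold shares over BAT depend on this floor, since members with weak iWAT values could not pass whatever their BAT value.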
